A study of Mus musculus with 67 samples.

Results

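p2 progenitors, the ventral neural tube cells that give rise to V2 interneurons, were compared between day 4 and day 5 of a differentiation of HM1 mouse embryonic stem cells. The members were chosen by their labels as all p2 samples of these days, 6 at day 4 and 6 at day 5, which makes 12 of the 67 samples of the series. On each day 3 replicates had received 10 nM and 3 had received 100 nM SAG, an agonist of Smoothened that stands in for Sonic hedgehog. All 12 had bFGF with LGK, an inhibitor of Wnt secretion, from day 0 to day 2. From day 2 to day 3 they had bFGF with the GSK3 inhibitor CHIR99021, the activin and TGF-beta receptor inhibitor SB-431542 and the BMP receptor inhibitor DMH1. From day 3 they had 100 nM RA, retinoic acid, together with SAG. The method was CaTS-ATAC, in which cells are fixed with PFA, open regions of their chromatin are tagged with the Tn5 transposase, and the cells are then stained for transcription factors and sorted. The sort kept cells with SOX2 protein, which most neurons have lost, and took p2 as those with PAX6 and NKX6.1 and without OLIG2 and NKX2.2, so a sample holds only cells that met that gate on its day, from a culture of 1 cell line. Groups set beside p2 were p0-1 at 0 and 10 nM SAG (12 samples at days 4 and 5), pMN (11 samples) and p3 (10 samples), each at 100 and 500 nM, neuromesodermal progenitors (NMP) at day 3 without SAG (3), and p2 at day 6 (6).

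In the embryo, Sonic hedgehog from the notochord and floor plate divides the ventral neural tube into progenitor domains, each marked by its own transcription factors. The p2 domain lies dorsal to pMN, the source of motor neurons, and its V2 neurons separate into V2a and V2b cells through Notch signalling. Progenitors also change with time: they leave the caudal, neuromesodermal state, produce neurons under proneural bHLH factors such as Neurog2, and later turn to making glia, a step linked to Sox9 and the NFI factors. Accessible chromatin marks promoters and distal elements that proteins can bind, and the comparison asks which of these changed in 1 day within a cell type held to the same gate.

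The values were read counts over 111638 consensus elements, scaled by the authors' size factors and log2 transformed with stabilized variance, and they are given here as normalized counts. Each day 4 sample had between 18806756 and 22066990 reads in elements. At day 5 the samples ranged from 13485605 reads in 10 nM replicate 2 to 29985325 in 100 nM replicate 1. The mean number of reads differed little between the days (exact two-sided permutation p = 0.481, 0.723 adjusted over 4 measures of depth). Without day 5 10 nM replicate 2 the day 5 mean was higher by 3542856.5 reads (exact permutation p = 0.0260), and without day 5 100 nM replicate 1 by 242912.5 (exact permutation p = 0.957). The median log2 value over elements was 5.62 at day 4 and 5.69 at day 5 (exact two-sided permutation p = 0.0173, 0.0693 adjusted). Replicates of the same day and SAG concentration had a squared Pearson correlation across elements, which are not independent replicates, of 0.928 to 0.969.

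The p2 label was checked at the element nearest the transcription start site (TSS), within 1000 bp, of each marker gene. The element of Pax6, the homeodomain factor of progenitors outside p3, held 2832 ± 229 normalized counts at day 4 and 3299 ± 254 at day 5 (mean ± SD, n = 6 each; log2 change 0.22, limma adjusted p = 0.00461). Nkx6-1, which marks the domains from p2 downwards, held 1836 ± 157 and 2053 ± 106, and at day 5 its level in p0-1 was 1351 ± 205, in pMN 2259 ± 39.5 and in p3 2211 ± 66.7. At Olig2, the pMN determinant that the sort required to be absent, p2 held 781 ± 117 and 796 ± 130.5 beside 1952 ± 116 in day 5 pMN and 381 ± 48.8 in day 5 p0-1. The levels of Nkx6-1 and Olig2 follow the labels, with p2 above p0-1 at Nkx6-1 and below pMN at Olig2. The other p2 markers were not highest in p2. At day 4 Nkx6-2 held 687 in p2, 696 in p0-1 and 850 in p3, and Irx3 held 2286, 2584 and 2478. At day 5 Irx5 held 4203 in p2 and 4553 in p0-1. All are given as a description with no test. Accessibility at Olig2 was not absent in p2, and the assay does not read the protein by which cells were sorted. None of the 13 marker elements passed the 2-fold threshold between the days. No element was centered within 1000 bp of the TSS of Dbx1, Nkx2-2, Foxa2 or Cdx2, so these markers could not be checked there.

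From day 4 to day 5, many more elements became more accessible in p2 than became less accessible. In the 31150 elements whose mean over the 12 samples exceeded 100 normalized counts, 1143 (3.67%) rose over 4-fold, the threshold the study used between days, and 155 (0.498%) fell over 4-fold. At a 2-fold threshold 3889 (12.5%) rose and 1128 (3.62%) fell, so that 77.5% of the 5017 called elements were higher at day 5 (limma with SAG as a covariate, adjusted p under 0.01). With replicate number as a block, since samples with the same number were alike across days, the counts were 3906 and 1130, and 1298 over 4-fold in either direction. The median log2 change over all tested elements was 0.15, and the calls and changes are given without removing that shift. It became -0.06 after centering each sample on its median, where 3027 elements rose and 1686 fell (64.2% higher). Correcting each sample for GC content and level gave 2584 and 1825 (58.6% higher). Over 4-fold the share higher was 88.1%, and that correction gave 576 higher and 318 lower (64.4% higher). In these bulk samples, fewer cells with an open element and less opening in each cell cannot be told apart.

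Elements that rose went from a median of 87.8 normalized counts at day 4 to 285 at day 5, and those that fell went from 231 to 85.1. As 87.8 and 85.1 lie under the 100 of the filter on the mean, most called elements passed it only through their higher day. All tested elements together had medians of 286 and 332. The 6 samples of day 4 and the 6 of day 5 did not overlap in 3410 (87.7%) of the elements that rose and in 1039 (92.1%) of those that fell, where among all tested elements 6061 (19.5%) were higher and 2564 (8.23%) lower without overlap. The called elements were chosen on these same samples, so their lack of overlap comes in part from the choice. That holds as well for each called element named below. The median change of the called elements was of like size at both SAG concentrations, which were pooled to call them. Elements that rose had a median log2 change of 1.56 at 10 nM and 1.64 at 100 nM, and those that fell had -1.39 and -1.32. The test of a difference between the changes at 10 and 100 nM called 0 elements (0%) by limma and 0 by limma's voom, with 244 and 202 at an unadjusted p under 0.05 and a lowest limma adjusted p of 1.00. With replicate number as a block limma had 1117 at an unadjusted p under 0.05, and 1952 with the block and the GC correction, and called 0 in each. With 3 replicates per day and concentration, 0 calls do not show that the changes are equal.

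**Figure D1:**
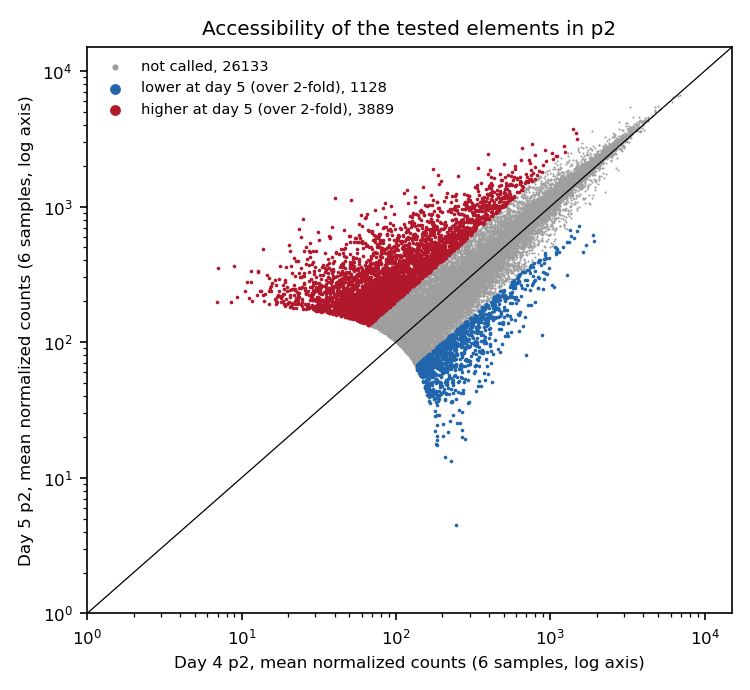
Each point is 1 of the 31150 tested elements, with its mean normalized counts in the 6 day 4 p2 samples (x axis, log) and in the 6 day 5 samples (y axis, log). Elements that rose over 2-fold (3889, red) lie above the diagonal and reach down to few counts at day 4, and those that fell (1128, blue) lie below it.

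The 8 largest increases and 8 largest decreases were taken from elements called over 4-fold whose days did not overlap, so their lack of overlap comes from the choice. Those given with ranges held under 100 normalized counts throughout their lower day. They passed the filter on the mean only through the other day. The largest increase was at an intergenic element at chrX:60731027-60731846, 161994 bp from the TSS of Sox3, the nearest gene, which encodes a SoxB1 factor of neural progenitors. It held 4.42 to 8.47 normalized counts (median 7.37) at day 4 and 272 to 427 (median 358) at day 5, 50.4-fold more (log2 change 5.66, limma adjusted p = 1.37e-10). With the correction for GC content and level the log2 change was 4.29. The element was as low in NMP at day 3 (3.19 ± 1.72, n = 3) and reached 634 ± 97.3 in day 6 p2 (n = 6). An element in intron 4 of Npas3, a bHLH-PAS factor of neural progenitors, lay at chr12:53536841-53537259. It held 2.53 to 19.7 normalized counts (median 5.79) at day 4 and 271 to 436 (median 378) at day 5 (log2 change 5.36, limma adjusted p = 3.00e-10). Near Tmem161b, a gene for a membrane protein, the element at chr13:84514945-84515673 held 4.42 to 23.3 normalized counts (median 15.1) at day 4 and 417 to 579.8 (median 468) at day 5 (log2 change 5.15, limma adjusted p = 3.61e-10). An element at chr2:4452400-4453453, nearest Prpf18 and inside intron 2 of Frmd4a, held 20.3 to 30.8 normalized counts (median 25.5) at day 4 and 668 to 1080.2 (median 731) at day 5 (log2 change 5.02, limma adjusted p = 2.32e-12). Prpf18 encodes a splicing factor, and nearest genes are given here as annotation only. The remaining 4 of the 8 largest increases had log2 changes of 4.84 to 4.86. They lay near Arrdc3, Kcnma1, which encodes a potassium channel, Paqr3 and Unc5d, a netrin receptor gene, and the GC correction took that of Kcnma1 down to 2.27.

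The largest decrease was in intron 1 of Osbpl6, an oxysterol-binding protein gene, at chr2:76419205-76420351. This element held 139.6 to 312 normalized counts (median 266) at day 4 and 1.96 to 6.87 (median 4.56) at day 5, 54.6-fold less (log2 change -5.77, limma adjusted p = 1.39e-09). With the GC correction the log2 change was -8.57. An element at chr10:34056337-34056998, nearest Calhm4 and inside Trappc3l, held 179.6 to 314 normalized counts (median 217) at day 4 and 4.30 to 19.0 (median 14.5) at day 5 (log2 change -4.08, limma adjusted p = 1.04e-09). In intron 2 of Arhgap24, a gene for a GTPase-activating protein, the element at chr5:102679904-102680732 held 109.6 to 313 normalized counts (median 205) at day 4 and 7.23 to 22.3 (median 11.96) at day 5 (log2 change -3.86, limma adjusted p = 4.90e-08). Near Smad1, which transduces BMP signals, the element at chr8:79473095-79473954 held 174 to 347 normalized counts (median 310.2) at day 4 and 13.6 to 31.4 (median 15.6) at day 5 (log2 change -3.84, limma adjusted p = 7.22e-09). That element was open in NMP at day 3 (247 ± 90.5, n = 3) and nearly closed in day 6 p2 (4.49 ± 2.04, n = 6). Smad1 had 3 of its 5 tested elements called lower and 0 higher. The other 4 of the 8 largest decreases, near D530049I02Rik, Gm34637, Pmp22 and C330024C12Rik, had log2 changes of -3.74 to -3.36.

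**Figure D2:**
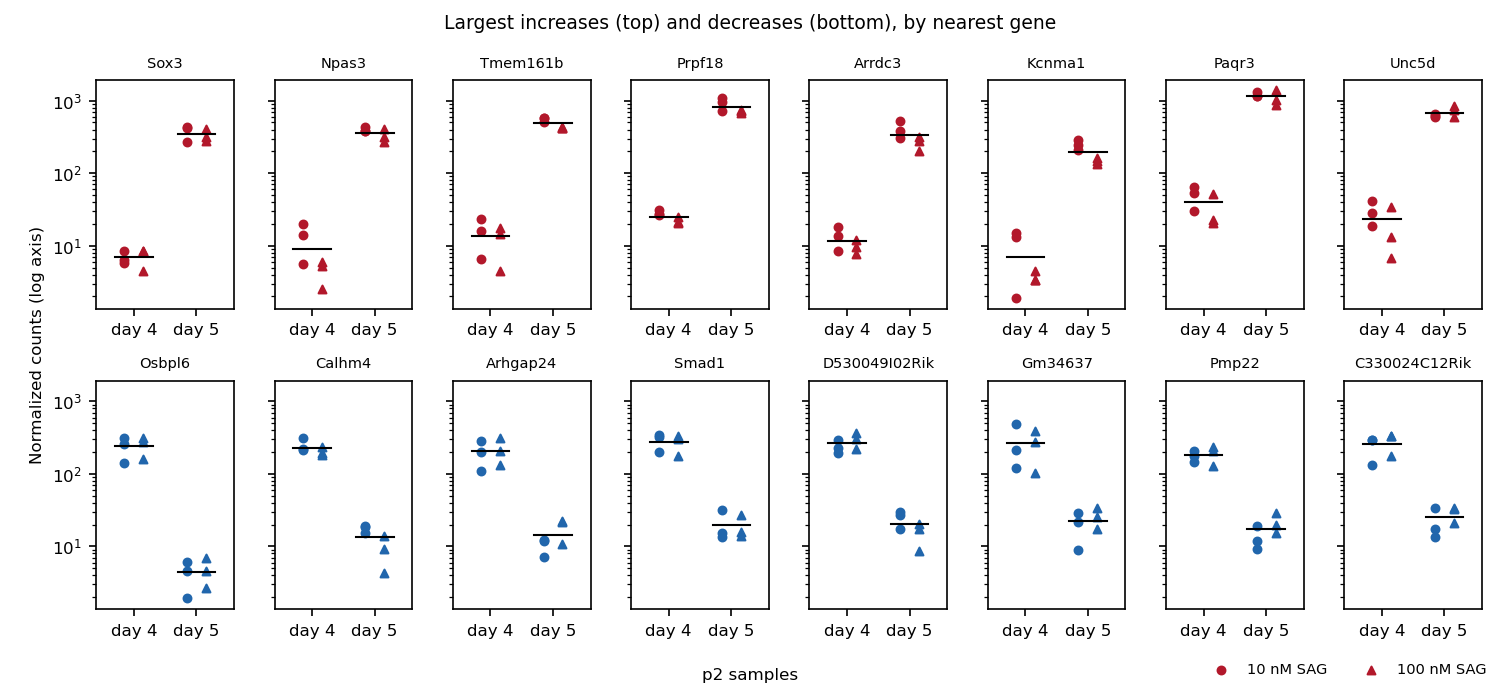
Normalized counts (y axis, log) at day 4 and day 5 in each of the 12 p2 samples, for the 8 largest increases (top, red) and the 8 largest decreases (bottom, blue), named by nearest gene, with circles for 10 nM SAG, triangles for 100 nM SAG and a line at the mean of each day (n = 6). The 16 elements were chosen among those whose days do not overlap. Values go from 4.42 to 8.47 against 272 to 427 near Sox3 and from 139.6 to 312 against 1.96 to 6.87 in Osbpl6.

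The central 200 bases of the 3 largest increases and the 3 largest decreases are shown, since they are the elements that changed most in p2. Sequences are from mm10, plus strand, 5′ to 3′, with capitals at matches to 19 motifs searched on both strands. In the elements that rose, the capitals mark the NFI motif TTGGCA 1 time near Sox3, and the SOX motif ACAATG 1 time, the E-box CAGCTG 1 time and the nuclear receptor motif AGGTCA 3 times in Npas3. Near Tmem161b they mark AGGTCA 1 time and the MEIS motif TGACAG 1 time.
Sox3 chrX:60731337-60731536: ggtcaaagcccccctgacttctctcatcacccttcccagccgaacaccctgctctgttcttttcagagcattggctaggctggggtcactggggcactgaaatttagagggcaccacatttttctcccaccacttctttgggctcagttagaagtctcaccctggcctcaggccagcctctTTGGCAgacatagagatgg
Npas3 chr12:53536951-53537150: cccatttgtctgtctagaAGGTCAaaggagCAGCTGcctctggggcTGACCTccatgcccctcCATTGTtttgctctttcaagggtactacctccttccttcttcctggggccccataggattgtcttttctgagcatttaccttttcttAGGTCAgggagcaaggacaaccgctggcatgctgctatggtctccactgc
Tmem161b chr13:84515210-84515409: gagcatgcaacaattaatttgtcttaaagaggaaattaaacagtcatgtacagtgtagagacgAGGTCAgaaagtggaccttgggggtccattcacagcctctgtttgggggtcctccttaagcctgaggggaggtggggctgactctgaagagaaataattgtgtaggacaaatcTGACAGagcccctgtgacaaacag
In the elements that fell, ACAATG occurs 1 time in each of Osbpl6, Calhm4 and Arhgap24, and the CDX and posterior HOX motif TTTATNG 1 time in each of Osbpl6 and Calhm4. Osbpl6 also holds the GATA motif AGATAA and TGACAG, Calhm4 the TCF motif CTTTGAT, and Arhgap24 the SOX or TCF motif ACAAAG, 1 time each.
Osbpl6 chr2:76419679-76419878: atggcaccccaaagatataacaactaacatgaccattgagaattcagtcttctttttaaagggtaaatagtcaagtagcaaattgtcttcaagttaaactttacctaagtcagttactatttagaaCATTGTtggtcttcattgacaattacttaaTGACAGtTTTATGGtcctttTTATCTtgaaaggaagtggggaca
Calhm4 chr10:34056568-34056767: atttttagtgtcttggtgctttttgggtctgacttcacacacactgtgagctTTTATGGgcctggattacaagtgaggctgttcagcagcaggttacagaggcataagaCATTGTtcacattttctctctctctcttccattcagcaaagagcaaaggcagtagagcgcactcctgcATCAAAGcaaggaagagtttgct
Arhgap24 chr5:102680219-102680418: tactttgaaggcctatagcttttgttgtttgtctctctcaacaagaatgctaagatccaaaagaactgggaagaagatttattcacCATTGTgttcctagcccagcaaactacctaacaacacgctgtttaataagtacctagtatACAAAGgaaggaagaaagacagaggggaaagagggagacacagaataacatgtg
In the central 200 bases of all tested elements, a match was found for TTGGCA in 8.37%, ACAATG in 11.3%, CAGCTG in 13.3%, AGGTCA in 10.95% and TGACAG in 13.6%. The shares were 6.22% for TTTATNG, 6.77% for AGATAA, 2.25% for CTTTGAT and 17.8% for ACAAAG. A match describes letters only, and the motifs overlap in part, as ACAATG and ACAAAG share most letters.

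Most changes were at distal elements. Of 9212 intergenic elements 21.5% rose and 5.87% fell, and of 10837 intronic elements 16.0% rose and 4.56% fell. Among 6919 elements at a promoter or TSS, 47 (0.679%) rose and 36 (0.520%) fell. The share that rose increased with distance to the TSS, from 0.544% within 1 kb to 9.69% at 1 to 10 kb, 17.1% at 10 to 50 kb, 26.1% at 50 to 200 kb and 34.2% beyond 200 kb. The share that fell was between 5.08% and 5.96% in each of the bins beyond 1 kb. The median distance to the TSS was 60212 bp for elements that rose, 30380.5 bp for those that fell and 8313.5 bp for all tested elements. Their median GC content also differed, at 45.5%, 47.7% and 52.6%. Outside promoters, 43.1% of elements with up to 40% GC rose and 2.36% of those over 55% GC, while 3.25% and 0.986% fell.

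**Figure D3:**
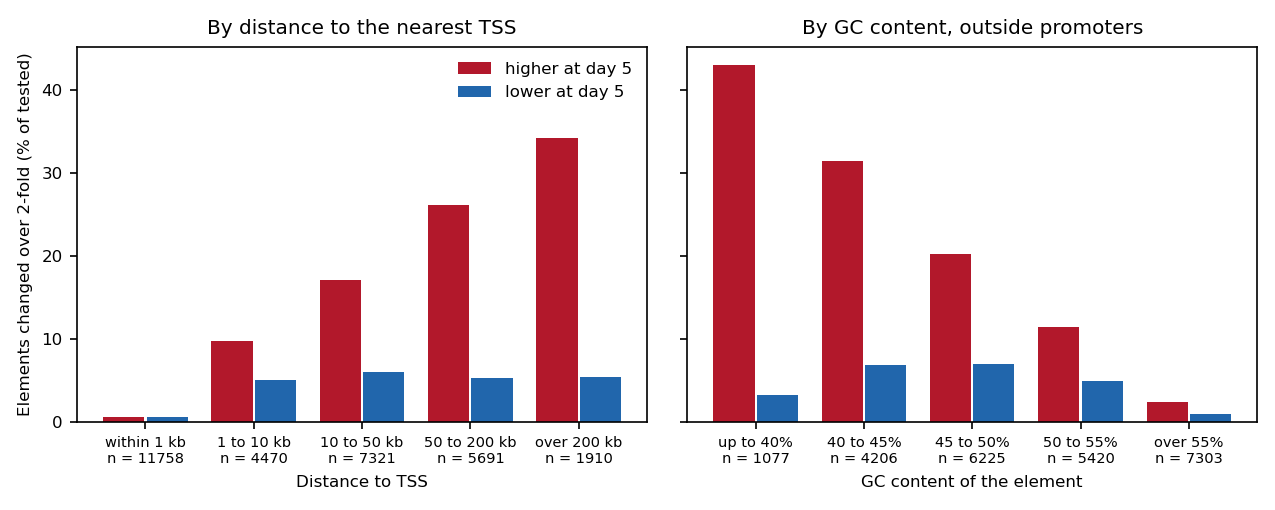
Percent of tested elements (y axis) that rose (red) or fell (blue) over 2-fold between day 4 and day 5 in p2, by distance to the nearest TSS (left, all 31150 elements) and by GC content outside promoters (right), with the number tested under each pair of bars. The share that rose goes from 0.544% within 1 kb of a TSS to 34.2% beyond 200 kb, and from 2.36% over 55% GC to 43.1% at up to 40% GC.

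A few promoters changed, and the 4 named here were chosen after their values were seen. At the promoter of Nhlh1, a bHLH gene switched on in cells that begin to form neurons, counts were 41.6 to 103 normalized counts (median 54.6) at day 4 and 143 to 598 (median 296) at day 5 (log2 change 2.53, limma adjusted p = 6.79e-07). Day 5 was above day 4 in all samples. The promoter of Mir10b, a microRNA gene in the Hoxd cluster, held 40.7 to 60.8 normalized counts (median 51.2) at day 4 and 351 to 482 (median 456) at day 5 (log2 change 3.13, limma adjusted p = 3.00e-10). At Foxp2, a forkhead gene of V1 and other neurons, the promoter held 33.6 to 83.6 normalized counts (median 57.0) at day 4 and 109 to 219.6 (median 143) at day 5 (log2 change 1.38, limma adjusted p = 5.71e-05). Its groups did not overlap, but with the correction for GC content and level the log2 change was 0.56 (limma adjusted p = 0.0685) and the call was lost. At Cer1, a secreted inhibitor of Nodal and BMP signals, the promoter held 141 to 198 normalized counts (median 176) at day 4 and 59.6 to 84.3 (median 66.4) at day 5 (log2 change -1.27, limma adjusted p = 1.24e-06), lower in every day 5 sample.

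Short motifs in the central 300 bases set the groups apart in part. The E-box CAGATG, a core bound by proneural bHLH factors, was in 31.4% of the elements that rose, 20.3% of those that fell and 18.6% of all tested. Outside promoters and at 45 to 50% GC, where base composition is alike, it was in 29.7%, 22.4% and 24.9%. The nuclear receptor motif AGGTCA, of the kind retinoic acid receptors bind, was in 25.5%, 17.1% and 15.9%, and in 25.9%, 18.2% and 19.9% at 45 to 50% GC. The FOX motif TGTTTAC went the other way, with 3.39% of the elements that rose, 6.38% of those that fell and 3.11% of all tested, at 45 to 50% GC 3.96%, 6.22% and 4.96%, and at 40 to 45% GC 3.18%, 11.5% and 5.16%. SOX letters ACAATG were in 28.5% and 27.6% against 16.0% of all tested, but at 45 to 50% GC in 25.6%, 28.6% and 24.4%. Of all 19 motifs, 17 had a larger share in the elements that rose than in all tested and 15 in those that fell, but at 45 to 50% GC outside promoters only 12 and 7. The elements were selected on neither strand nor position of a motif, and shares are given with no test.

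Levels on other days place the change in a longer course, without a test since the called elements were chosen on days 4 and 5. Elements that rose had a median of 11.5 normalized counts in NMP at day 3, 87.8 at day 4, 285 at day 5 and 353 at day 6. Of the 3889, 3218 (82.7%) were over 2-fold lower in NMP than in day 4 p2, and 2530 (65.1%) were higher still at day 6 than at day 5. Elements that fell had medians of 60.8, 231, 85.1 and 56.5, so that their median was highest at day 4. Of these 1128, 734 (65.1%) were over 2-fold lower in NMP than in day 4 p2, 256 (22.7%) within 2-fold and 138 (12.2%) over 2-fold higher. At day 6, 1006 (89.2%) were lower than at day 5. All tested elements had medians of 350.05, 286, 332 and 348. The shares are given for called elements only, with none over all tested elements beside them. They describe the called elements and do not set them apart from the rest.

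Elements were then grouped by the role of their nearest gene, and each group is read beside all tested elements, of which 12.5% rose, 3.62% fell and the median log2 change was 0.15. After centering all tested elements gave 3027 higher and 1686 lower, and after the GC correction 2584 and 1825. Counts of a group under these scalings are read beside those, since the move toward lower holds over all tested elements. Near the sort markers and domain identity factors, 21 of 101 tested elements rose and 3 fell (20.8% and 2.97%), with a median of 0.25. Centering on the median gave 13 and 6, and the correction for GC content and level 12 and 5. Irx3, a homeodomain factor of p2 and more dorsal domains, had 7 of 18 tested elements called higher and 1 lower. The largest rise was at chr8:91996418-91997881, which held 46.4 to 160.1 normalized counts (median 81.1) at day 4 and 226 to 1243 (median 577) at day 5 (log2 change 3.04, limma adjusted p = 3.17e-06), with no overlap. Pax6 had 2 of 7 elements called higher (up to 2.64) and Nkx6-1 3 of 16, although their promoters were under the threshold. An element 9968 bp from Foxa2, the floor plate determinant, held 161 to 734 normalized counts (median 439) at day 4 and 33.4 to 206 (median 67.1) at day 5 (log2 change -2.26, limma adjusted p = 1.66e-06), and here the days overlapped. Of the 10 tested elements near Foxa2, 2 were called higher (up to 1.30) and 1 lower.

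Of 54 elements near determinants of V2 interneurons, 15 rose and 1 fell (27.8% and 1.85%; median 0.21). Foxp2, which was put on this list although V1 and other neurons express it too, supplied 4 of the 15. Foxn4 had 3 of 5 tested elements called higher, Foxn4 being the factor that starts the V2a and V2b split. Of 4 tested elements near Shox2, a homeobox gene of V2a neurons, 1 was called higher and 0 lower, with a median of 0.06. The called Shox2 element went from 74.98 ± 42.5 to 517 ± 262 normalized counts (n = 6 each, log2 change 2.79, limma adjusted p = 4.51e-07). At Gata3, the V2b factor, the only element that fell went from 609.9 ± 111 to 273 ± 56.7 normalized counts (log2 change -1.16, limma adjusted p = 4.13e-06). For both the days did not overlap. Of the 4 tested elements near Gata3, 0 were called higher and 1 lower, with a median of 0.34. Under the median and GC scalings the V2 counts were 12 and 2, and 8 and 2.

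Proneural bHLH genes and their partners had 19 of 78 elements higher and 3 lower (24.4% and 3.85%), with a median of 0.49, and 12 and 4 after centering or 12 and 4 after the GC correction. An element 8310 bp from Neurog2, the proneural factor of motor neuron and V2 progenitors among others, fell. It held 1084 to 1656 normalized counts (median 1244) at day 4 and 451 to 652 (median 558) at day 5 (log2 change -1.28, limma adjusted p = 3.36e-07). Its days did not overlap. Of the 4 tested elements near Neurog2, 0 were called higher and 1 lower, with a median log2 change of 0.62. Near Notch ligands, receptors and targets, 8 of 93 elements rose and 1 fell (8.60% and 1.08%; median 0.26), and 6 and 2 and 5 and 2 under the scalings. An element near Dll4, a Notch ligand gene of V2 cells, went from 89.3 ± 8.16 to 239 ± 122 normalized counts (log2 change 1.42, limma adjusted p = 2.22e-04). Within 100 nM SAG alone its change of 0.90 was under the threshold. Another near Hes3, a Notch target of early progenitors, fell from 491 ± 109 to 236 ± 22.0 normalized counts (log2 change -1.06, limma adjusted p = 1.52e-05). The Hes3 call was lost without day 4 10 nM replicate 3 (-0.99), without day 4 100 nM replicate 3 (-0.97), within 100 nM SAG alone (-0.99) and with the fold taken on the transformed scale. Hes1 and Hes5, the main Notch targets, had 0 of 5 elements each called in either direction.

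Pan-neural progenitor factors had 20 of 120 elements higher and 6 lower (16.7% and 5.00%; median 0.31), with 15 and 9 after centering and 13 and 11 after the GC correction. Besides Sox3, Sox11, a SoxC factor of differentiating neurons, had 5 of 7 elements called higher (up to 2.73), and Meis1, a TALE homeodomain cofactor of Hox proteins, had 7 of 22. Late temporal and gliogenic factors had 17 of 126 higher and 5 lower (13.5% and 3.97%; median 0.25), close to the shares of all tested elements, and 16 and 6 and 14 and 6 under the scalings. Npas3 had 4 of 9 called higher, and Slc1a3, the glial glutamate transporter, had elements that moved by as much as 4.49 and -2.26. Near Sox5, a SoxD factor, an element fell from 201 ± 26.4 to 24.8 ± 4.05 normalized counts (log2 change -3.02, limma adjusted p = 1.40e-09). Early heterochronic factors, a group with Lin28 and Sall genes, had 6 of 59 higher and 2 lower (10.2% and 3.39%; median 0.12), with 4 and 3 and 4 and 3 under the scalings. An element near Sall1 rose from 53.2 ± 27.0 to 552 ± 167 normalized counts (log2 change 3.38, limma adjusted p = 4.45e-08). One in an intron of Sall4, a partner of the pluripotency network, fell from 778 ± 135 to 283 ± 77.2 normalized counts (log2 change -1.46, limma adjusted p = 1.36e-06). None of these named elements overlapped between the days (n = 6 each).

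The elements centered within 1000 bp of the TSS of the neuromesodermal markers T and Nkx1-2 lost accessibility by less than 2-fold. At T (Brachyury), counts were 1175 ± 113 in NMP (n = 3), 224.7 ± 47.6 in p2 at day 4 and 133 ± 13.1 at day 5 (n = 6 each; log2 change -0.75, limma adjusted p = 5.00e-04). Nkx1-2, a marker of the caudal stem zone, held 1492 ± 183, 441 ± 58.1 and 239 ± 27.7 (log2 change -0.88, limma adjusted p = 5.68e-06). Its change passed the 2-fold threshold after centering samples on their median and within 10 nM SAG alone (-1.08 in each). Neither element overlapped between the days. Over all 62 elements near neuromesodermal and caudal genes, 9 rose and 3 fell (14.5% and 4.84%), with a median of -0.06 against 0.15 for all tested. Counts were 7 and 8 after centering and 4 and 5 after the GC correction, scalings that moved all tested elements toward lower too. Of 8 tested elements near Foxb1, a forkhead gene of the neural tube, 2 were called higher and 0 lower, with a median of -0.16. The largest rise among them went from 30.3 ± 7.73 to 256 ± 37.1 normalized counts (log2 change 3.08, limma adjusted p = 2.92e-09). Near Fgf3 an element fell from 642 ± 174 to 221 ± 73.5 normalized counts (log2 change -1.54, limma adjusted p = 1.14e-05). Near Hox genes, which set position along the body axis, 6 of 53 elements rose and 0 fell (11.3% and 0% by limma; median 0.08), and 6 and 1 did so under either scaling. All 6 lay near Hoxa4, Hoxb2, Hoxb4 or Hoxc4, and Hoxc4 had 3 of 8 called higher. An element with Hoxa4 as its nearest gene, inside an intron of Hoxa3, went from 26.2 ± 6.69 to 228 ± 80.1 normalized counts (log2 change 3.12, limma adjusted p = 7.39e-08). Pluripotency genes had 3 of 26 higher and 3 lower (11.5% and 11.5%; median -0.26), 3 and 3 after centering and 2 and 3 after the GC correction. An intron of Tfcp2l1 rose from 28.7 ± 9.44 to 226 ± 54.6 normalized counts (log2 change 2.97, limma adjusted p = 1.45e-08) and an element near Klf5 fell from 209.9 ± 71.1 to 49.2 ± 10.1 normalized counts (log2 change -2.09, limma adjusted p = 1.92e-06).

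Signalling pathways were mixed. In the retinoic acid pathway 5 of 67 elements rose and 7 fell (7.46% and 10.4%; median 0.09), with 5 and 9 and 4 and 8 under median centering and the GC correction. Introns of Nrip1, a corepressor that retinoic acid receptors recruit, held an element that rose from 81.2 ± 23.8 to 425 ± 90.2 normalized counts (log2 change 2.39, limma adjusted p = 6.93e-09) and another that fell from 211 ± 22.0 to 52.8 ± 19.7 normalized counts (log2 change -2.0, limma adjusted p = 2.63e-07). In the Shh pathway 11 of 76 rose and 2 fell (14.5% and 2.63%; median 0.13), 7 and 4 after centering and, with no majority, 6 and 6 after the GC correction. An element near Scube1, whose family helps release hedgehog ligands, rose from 41.2 ± 12.3 to 168 ± 33.4 normalized counts (log2 change 2.02, limma adjusted p = 4.94e-07). Near Gas1, a hedgehog coreceptor gene, an element fell from 171 ± 21.1 to 50.9 ± 8.42 normalized counts (log2 change -1.75, limma adjusted p = 1.42e-07). The days did not overlap at any of these 4 elements. Of the 6 tested elements near Gas1, 1 was called higher (1.89) and 1 lower.

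In the FGF-ERK pathway 13 of 103 elements rose and 4 fell (12.6% and 3.88%; median 0.09), but the counts were 9 and 9 after centering and 10 and 12 after the GC correction. An element with Fgfbp3, a carrier of FGF ligands, as its nearest gene lies in Tnks2. It rose from 18.9 ± 4.63 to 247 ± 101 normalized counts (log2 change 3.70, limma adjusted p = 4.89e-09). Another near Fgfr1, an FGF receptor gene, fell from 189 ± 27.5 to 51.1 ± 10.5 normalized counts (log2 change -1.89, limma adjusted p = 1.94e-08). Wnt pathway genes had 22 of 129 higher and 9 lower (17.1% and 6.98%; median 0.10), 16 and 11 and 15 and 12 under the scalings. An element in an intron of Wnt5a, a ligand gene, rose from 54.9 ± 12.1 to 266 ± 59.7 normalized counts (log2 change 2.28, limma adjusted p = 1.02e-07). In an intron of Lef1, a transcription factor of the pathway, another fell from 214 ± 67.1 to 71.3 ± 18.5 normalized counts (log2 change -1.58, limma adjusted p = 4.05e-05). Both genes had calls in both directions, 3 higher and 2 lower of 11 for Wnt5a and 1 of each of 6 for Lef1. BMP and TGF-beta genes had 8 higher and 8 lower of 87 (9.20% each; median 0.04), and 7 and 8 under both scalings. The ligand gene Bmp2 had an element that rose from 43.9 ± 24.3 to 278 ± 43.1 normalized counts (log2 change 2.66, limma adjusted p = 1.85e-07), while the largest decrease of the group was the Smad1 element already named. None of the elements named for these pathways overlapped between the days. Of the 6 tested elements near Bmp2, 2 were called higher and 1 lower (-1.20).

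Genes of axon guidance and cell adhesion had the largest share of elements that rose among the 21 groups. Of 289 elements 85 rose and 8 fell (29.4% and 2.77%; median 0.50), near 32 and 5 of the 46 genes, and 72 and 12 after centering and 60 and 16 after the GC correction. Efnb2, an ephrin ligand, had 10 of 20 tested elements called higher, and Robo1, a receptor for Slit proteins, 8 of 14. Efna5, another ephrin, had 7 of 14 called higher and 2 lower, and Dcc, a netrin receptor gene, 4 of 9 higher. Single elements rose by up to 3.54 near the ephrin gene Efna5. Near genes of receptors and adhesion molecules they rose by up to 4.13 (Neo1), 4.12 (Nlgn1), 3.44 (Ncam1) and 3.22 (Cdh11). The element in intron 3 of Unc5d held 6.75 to 41.0 normalized counts (median 23.6) at day 4 and 595 to 849 (median 635) at day 5 (log2 change 4.84, limma adjusted p = 1.27e-09). An element near Cdh6 fell from 201 ± 29.5 to 60.0 ± 8.54 normalized counts (log2 change -1.74, limma adjusted p = 2.76e-08). Of the 10 tested elements near Cdh6, 3 were called higher (up to 2.71) and 2 lower. Cell cycle regulators had 16 of 74 elements higher and 1 lower (21.6% and 1.35%; median 0.26), and 11 and 2 and 14 and 2 under the scalings. Gadd45g, a growth arrest gene of cells leaving the cycle, had 4 of 6 called higher, the largest of which went from 59.0 ± 16.5 to 326 ± 158 normalized counts (log2 change 2.47, limma adjusted p = 3.26e-07). The element that fell, near E2f3, went from 367 ± 76.1 to 169 ± 46.7 normalized counts (log2 change -1.12, limma adjusted p = 9.00e-05).

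By gene, the most called elements were at loci with many regulatory elements. Zfp608, a zinc finger gene, had 12 of 29 tested elements called higher and 1 lower, Efnb2 10 of 20, Tox3 9 of 13, Dach1, a nuclear transcription cofactor, 8 of 15, and Robo1 8 of 14. Tns3, which encodes the focal adhesion protein tensin, had 6 of 15 called lower and 1 higher, and Psd3 had 4 of 13 called lower. A further 6 genes had 3 each, among them Smad1 with 3 of 5, Dapk1 with 3 of 6 and Rcn1 with 3 of 6. The elements that rose lay nearest 2719 genes and those that fell nearest 1020, of 16000 genes with a tested element.

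Markers of other cell types were examined as well. Near neuron markers 20 of 92 elements rose and 2 fell (21.7% and 2.17%; median 0.16), 16 and 2 and 11 and 3 under the scalings. Dcx, a microtubule protein of new neurons, had 3 of 3 called higher, an element near Ina, a neuronal intermediate filament gene, rose from 28.4 ± 6.61 to 180.3 ± 94.5 normalized counts (log2 change 2.67, limma adjusted p = 1.80e-06), and another near En1, the V1 factor, fell from 323 ± 30.4 to 102 ± 25.8 normalized counts (log2 change -1.66, limma adjusted p = 2.22e-07). Of the 5 tested elements near En1, 1 was called higher (1.26) and 1 lower. At the promoters of 11 of the 32 neuron genes, of which Isl1 was the most accessible (837 to 849), 0 of 10 tested elements were called by limma. Their summed counts were 4111 to 5255 at day 4 (median 4820.4) and 4330.4 to 5701 at day 5 (median 5079), which overlap, and 0 of the 11 elements were at 0. Dorsal progenitor and neural crest markers had 6 of 66 higher and 4 lower (9.09% and 6.06%; median 0.04), with 5 and 5 and 4 and 4 under the scalings, which leave no majority. An element near Foxd3, a neural crest and V1 factor, held 232 to 487 normalized counts (median 317) at day 4 and 1515 to 2137 (median 2057) at day 5 (log2 change 2.50, limma adjusted p = 3.17e-09), with no overlap. An intron of Lmx1a, a roof plate gene, fell from 165 ± 41.9 to 41.7 ± 11.6 normalized counts (log2 change -1.99, limma adjusted p = 1.44e-06). The promoter sum of that group was 4301 to 5542 at day 4 and 4964 to 5446 at day 5, with Ednrb highest (896 to 1135). The part of such cells in the results was not tested.

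Floor plate and endoderm markers had 6 of 55 elements higher and 6 lower (10.9% each; median -0.17), and more lower than higher under both scalings (4 and 10, and 3 and 8). Besides the Foxa2 element, an intron of Spon1, the floor plate gene for F-spondin, fell from 282 ± 68.4 to 53.7 ± 9.13 normalized counts (log2 change -2.39, limma adjusted p = 3.51e-08). Of the 5 tested elements near Spon1, 1 was called higher (1.27) and 2 lower. An element 101170 bp from Shh, in an intron of 9530036O11Rik, rose from 152 ± 35.2 to 578 ± 65.5 normalized counts (log2 change 1.92, limma adjusted p = 9.07e-09). Summed promoter counts of 7 of these 16 genes were 1814 to 3022 at day 4 (median 2465) and 1843 to 2075 at day 5 (median 1929), a ratio of 0.788, with Foxa2 highest (661 to 358) and Cer1 the only promoter called. Mesoderm markers had 6 of 45 higher and 1 lower (13.3% and 2.22%; median -0.15), 6 and 3 after centering, and 2 and 3, more lower than higher, after the GC correction. Near Foxc1, in Gmds, an element rose from 33.3 ± 17.1 to 188 ± 28.7 normalized counts (log2 change 2.50, limma adjusted p = 2.72e-07). An intron of Meox1, a somite gene, fell from 214 ± 56.0 to 98.8 ± 14.9 normalized counts (log2 change -1.11, limma adjusted p = 6.76e-05), and its call was lost without day 4 10 nM replicate 2 (-0.99), with the GC correction (-0.99) and within 10 nM SAG alone (-1.03). Of the 3 tested elements near Meox1, 1 was called higher (1.53) and 1 lower. Mesoderm promoter sums were 2788 to 3557 and 3234 to 3643, with Pdgfra highest (988 to 935). Promoters of 3 of 21 pluripotency genes summed to 401 to 486 at day 4 and 253 to 284 at day 5, without overlap, a ratio of 0.595, with Nodal highest (255 to 161). No promoter element of any of these groups was at 0, and the part of other cells in the results was not tested.

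The other progenitor types showed how far the change was shared. The elements that rose in p2, with a median log2 change of 1.6, had medians of 1.6 in p0-1, 1.54 in pMN and 1.18 in p3, and those that fell, with -1.34 in p2, had -1.28, -1.24 and -1.05. The differences between these changes were tested themselves. Of 30971 elements tested against p0-1, the change differed over 2-fold in 35 (0.113%), 25 with a more positive change in p2 and 10 with a more negative change, in 99 with the GC correction and in 290 with replicate number as a block, since types at 1 SAG concentration were sorted from shared cultures. Of 31184 tested against pMN it differed in 21 (0.0673%), 7 more positive and 14 more negative, and in 89 with replicate number as a block. Against p3 it differed in 1032 of 30856 (3.34%), 612 more positive in p2 and 420 more negative, and in 1619 with the block.

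The count of differences from p0-1 depended on single libraries. It was 5 to 155, and moved by over 1.5 times without any of 23 of the 24, the exception being day 4 p0-1 10 nM replicate 3 (32). Without replicates 1, 2 and 3 in turn it was 11, 13 and 23 for day 4 p0-1 at 0 nM, 103, 11 and 32 for day 4 p0-1 at 10 nM, 5, 10 and 9 for day 5 p0-1 at 0 nM and 5, 6 and 13 for day 5 p0-1 at 10 nM. For p2 it was 19, 20 and 10 at day 4 10 nM, 17, 7 and 10 at day 4 100 nM, 9, 10 and 155 at day 5 10 nM and 6, 6 and 57 at day 5 100 nM. For pMN the count was 10 without day 4 pMN 100 nM replicate 2, 9 without day 4 pMN 500 nM replicate 3, 10 without day 5 p2 100 nM replicate 1 and 13 without day 5 p2 100 nM replicate 2. It was 9 without day 5 pMN 100 nM replicate 3 and 7 without day 5 pMN 500 nM replicate 3. Within the SAG concentration both types share, 0 elements differed from p0-1 at 10 nM or from pMN at 100 nM by limma, with 2692 and 1420 at an unadjusted p under 0.05. By voom with all samples 13 and 9 differed. The largest difference was near Jak2, a cytokine signalling kinase gene, at an element that passed the filter on the mean only through its level in day 5 p0-1. It held 10.6 ± 6.07 and 388 ± 169 in p0-1 and 9.89 ± 3.52 and 43.7 ± 15.5 in p2 (difference of log2 changes -3.04, limma adjusted p = 2.39e-04). A difference that held without each single library was at Ptgds, which encodes a prostaglandin synthase, at 491 ± 86.4 and 64.8 ± 20.8 in p0-1 and 629 ± 109.7 and 308 ± 76.6 in p2 (1.89, limma adjusted p = 9.90e-04). Against pMN, an element near Vps37b, a sorting complex gene, passed the filter on the mean through day 5 pMN. It went from 70.4 ± 16.4 to 272 ± 32.7 in pMN and from 61.4 ± 8.58 to 89.5 ± 20.7 in p2 (-1.42, limma adjusted p = 0.00202).

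Most differences were with p3, the domain next to the floor plate. The largest was near 1700017G19Rik, at chr3:40243021-40244195, which held 5.06 to 27.6 normalized counts (median 9.93) in p2 at day 4 and 237 to 414 normalized counts (median 349.9) at day 5, while p3 held 8.59 ± 0.723 and 17.7 ± 6.56 (mean ± SD). The difference of the log2 changes was 3.76 (limma adjusted p = 3.31e-06). In intron 1 of Robo1, the Slit receptor gene, p2 went from 44.6 ± 9.63 to 229 ± 77.9 and p3 from 81.6 ± 26.3 to 50.0 ± 12.9 (difference 3.15, limma adjusted p = 8.70e-06). Near Arfgap2, a gene of vesicle traffic, p2 went from 29.4 ± 11.9 to 316 ± 122 and p3 from 15.6 ± 6.19 to 20.9 ± 3.18 (difference 2.99, limma adjusted p = 2.73e-05). These 3 elements passed the filter on the mean through their level in day 5 p2, and limma with no filter called them too. In exon 2 of Fmn2, an actin nucleator gene, p2 fell from 298 ± 62.5 to 36.0 ± 12.8 while p3 held 224.97 ± 107 and 274 ± 91.3 (difference -3.28, limma adjusted p = 4.59e-05). An intron of Oxr1, a gene of the response to oxidative stress, held 154 ± 37.0 and 24.2 ± 5.92 in p2 and 158 ± 71.2 and 263 ± 75.7 in p3 (difference -3.41, limma adjusted p = 5.62e-05). Near 4932441J04Rik the levels were 94.3 ± 10.4 and 33.3 ± 12.9 in p2 and 84.8 ± 41.6 and 230.2 ± 85.1 in p3 (difference -2.92, limma adjusted p = 1.13e-04), and the element passed the filter through day 5 p3. Over the 612 elements with a more positive change in p2 the median log2 change was 1.17 in p2 and -0.22 in p3, and over the 420 with a more negative change -0.26 and 1.06. The count was 679 without day 4 p3 500 nM replicate 1 and at most 1267 when a library was left out. Within 100 nM SAG, the concentration that both types share, 38 elements differed, and by voom with all samples 571.

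**Figure D4:**
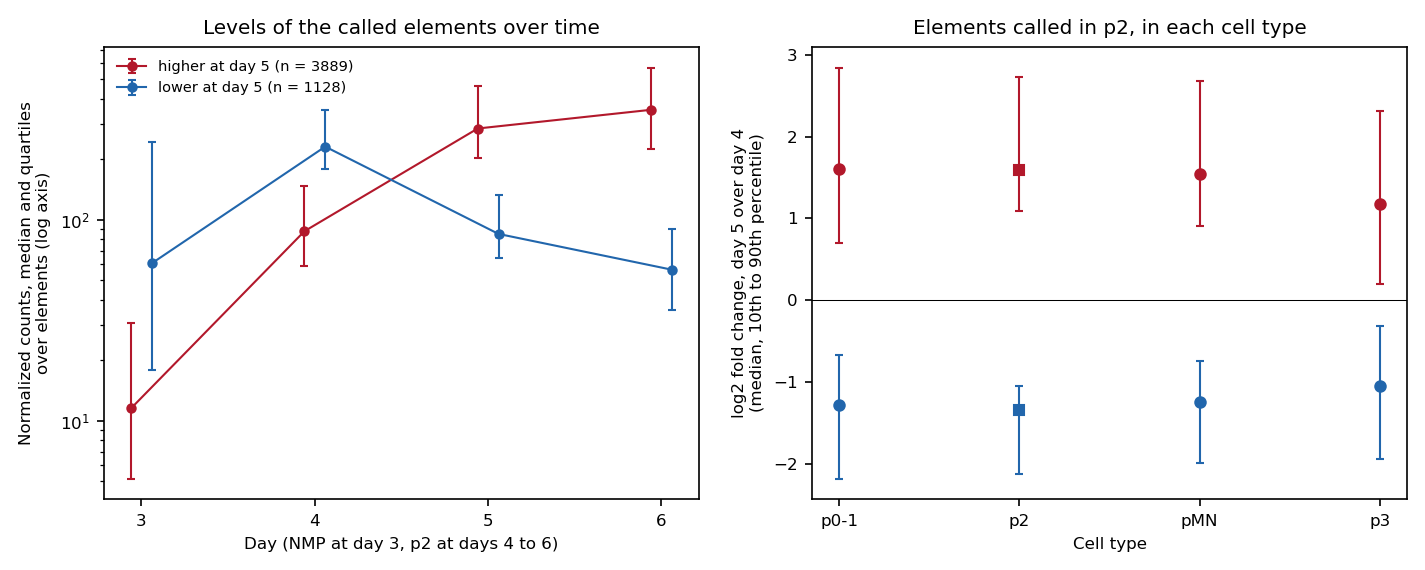
Left, median and quartiles over elements of the mean normalized counts (y axis, log) in NMP at day 3 (n = 3 samples) and p2 at days 4, 5 and 6 (n = 6 each), for the 3889 elements that rose (red) and the 1128 that fell (blue). Right, median and 10th to 90th percentile of the log2 change from day 4 to day 5 of the same elements in each cell type, where the medians of the elements that rose are 1.6 in p0-1, 1.6 in p2, 1.54 in pMN and 1.18 in p3.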

How the data were processed

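The authors aligned CaTS-ATAC reads to mm10 with nf-core/atacseq, called peaks with MACS2, merged peaks present in at least 2 replicates into consensus elements and counted reads in each. The deposited values of 111638 elements in 67 samples are on a log2 scale, as the DESeq2 variance-stabilizing transformation of counts divided by the authors' size factors. The deposited HOMER annotation gives coordinates and distance to the TSS in bp for 133549 elements. The transformation was inverted to normalized counts and reads, and 100% of recovered values below 1000 reads were whole numbers to within 0.001. Coordinates were checked against GRCm38, where 0 elements ended beyond a chromosome and 90.3% of elements at a promoter or TSS, of those with their gene on the same chromosome, had a gene end within 5000 bp.

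Elements averaging over 100 normalized counts across a fit were tested with limma 3.58.1 in R 4.3.3 on the deposited log2 values, two-sided, letting the variance follow the mean, with SAG as a covariate and Benjamini-Hochberg adjustment over the tested elements. A call needed an adjusted p under 0.01 and a change above 4-fold or 2-fold in the ratio of mean normalized counts. Differences between cell types, and between 10 and 100 nM SAG, were tested as interactions. Depth was compared by exact permutation of samples. Reads in elements were 13485605 to 29985325 per p2 sample. Counting error limits the precision of elements with few counts, and PCR copies are not independent molecules. Samples with the same replicate number were alike over p2 and pMN (in p2, a correlation of 0.277 to 0.839 over 18 pairs after removing group means), so blocked counts are given beside those comparisons, while the other values come from fits with no block. Types at the same SAG concentration were sorted from shared cultures, though with p0-1 and p3 not every pair was alike. For 15 samples, none of p2, titles and descriptions give different replicate numbers, and the titles' were used.

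The members and lists were chosen with earlier results of these data known. Elements named are the 8 largest increases and decreases over 4-fold without overlap, the largest change in each direction for each of 21 gene lists, the element centered nearest the TSS of each marker within 1000 bp, the 3 largest called differences in each direction from each other type, and the genes with the most called elements. Some results are not reported here. Summed promoter counts are over elements annotated as promoter or TSS. Motifs were searched on both strands in the central 300 bases, or 150 as an alternative. Alternatives covered the filter, the scale of the fold, the trend, the block, median centering, a correction for GC content and level, voom, the adjusted p threshold, the SAG covariate, the samples in the fit and leaving out each library. Python 3.11.15 with numpy 2.4.6, pandas 2.3.3, scipy 1.17.1, pysam 0.24.0 and matplotlib 3.10.9 was used. The fits were tested on simulated data. Day 6 samples, and other types, were used only as described.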

Additional observations from a re-analysis of the deposited data

Results flagged for a closer look

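In 8 of 182 groups of 6 samples, over 87 named elements and 4 measures of depth at each day, 1 sample lay far from the other 5, where chance gives about 1 in 20. They fell on several libraries. At day 4, 10 nM replicate 1 held 156 normalized counts near Shox2, with the others at 43.4 to 80.5. 100 nM replicate 1 held 182 at the Dbx2 element near its TSS, with the others at 228 to 246. The Nxn element held 37.1 in 100 nM replicate 3 and 25.2 to 29.6 in the others. At day 5, 100 nM replicate 3 held 351 at the Mir10b promoter (others 439 to 482). In 10 nM replicate 3 the Nrip1 element that fell held 91.2 (others 37.3 to 54.4) and the Arfgap2 element 552 (others 210.5 to 319). The Jak2 element held 72.9 in 10 nM replicate 2 and 29.1 to 44.7 in the others. The calls of the Shox2, Nrip1 and Mir10b elements in p2 held without each single library.

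Between p2 and p0-1 the day 4 to day 5 change differed in 25 elements with a more positive and 10 with a more negative change in p2. The largest more positive differences of log2 changes were 2.32 near 4930459C07Rik, 2.01 near Gm10538 and 1.89 at Ptgds (limma adjusted p = 0.00615, 0.00785 and 9.90e-04). The largest more negative were -3.04 near Jak2, -2.12 near Mir5118 and -2.01 near 4930486I03Rik (limma adjusted p = 2.39e-04, 0.0054 and 0.00565), where the Jak2 element passed the filter on the mean only through day 5 p0-1. 4930459C07Rik lost its call without 15 of the 22 libraries left out in turn (2.13 to 2.46), keeping it without day 4 p0-1 0 nM replicate 3, day 4 p0-1 10 nM replicates 1 and 3, day 4 p2 10 nM replicate 1, day 4 p2 100 nM replicate 1, day 5 p2 10 nM replicate 3, day 5 p2 100 nM replicate 3. Gm10538 lost its call without 20 of the 23 libraries left out in turn (1.88 to 2.16), keeping it without day 4 p0-1 10 nM replicate 1, day 5 p2 10 nM replicate 3, day 5 p2 100 nM replicate 3. Mir5118 lost its call without day 4 p2 10 nM replicate 3, day 4 p2 100 nM replicates 2 and 3, day 5 p0-1 0 nM replicate 1, day 5 p0-1 10 nM replicates 1, 2 and 3, day 5 p2 10 nM replicates 1 and 2, day 5 p2 100 nM replicates 1 and 2 (-2.15 to -1.96). 4930486I03Rik lost its call without 16 of the 24 libraries left out in turn (-2.06 to -1.78), keeping it without day 4 p0-1 0 nM replicate 3, day 4 p0-1 10 nM replicates 1 and 3, day 4 p2 10 nM replicate 1, day 4 p2 100 nM replicate 1, day 5 p0-1 0 nM replicate 2, day 5 p2 10 nM replicate 3, day 5 p2 100 nM replicate 3.

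Between p2 and pMN the change was more positive in p2 in 7 elements and more negative in 14. The largest more positive differences were 1.90 in Mir99ahg, 1.73 near 1700017G19Rik and 1.38 in Spock1 (limma adjusted p = 0.00396, 0.00474 and 0.00719). The largest more negative were -2.03 near Mnx1, a motor neuron gene, -1.49 in Nxn and -1.42 near Vps37b (limma adjusted p = 0.00657, 0.00202 and 0.00202). Near Mnx1, pMN went from 74.9 ± 8.26 to 259.8 ± 79.7 normalized counts and p2 from 73.7 ± 14.4 to 61.4 ± 29.1, so that element, like that of Vps37b, passed the filter on the mean through day 5 pMN. Mir99ahg lost its call without day 5 p2 100 nM replicate 1, day 5 pMN 100 nM replicate 3, day 5 pMN 500 nM replicate 2 (1.79 to 1.89), 1700017G19Rik lost its call without day 4 p2 100 nM replicate 3, day 4 pMN 100 nM replicates 1 and 2, day 4 pMN 500 nM replicate 3, day 5 pMN 500 nM replicate 3 (1.63 to 1.67) and Nxn lost its call without day 5 pMN 500 nM replicate 3 (-1.38). Spock1 lost its call without 17 of the 23 libraries left out in turn (1.2 to 1.41), keeping it without day 4 p2 10 nM replicates 1, 2 and 3, day 4 pMN 500 nM replicate 1, day 5 pMN 100 nM replicate 1, day 5 pMN 500 nM replicate 3. Mnx1 lost its call without 14 of the 23 libraries left out in turn (-2.07 to -1.72), keeping it without day 4 p2 10 nM replicates 1 and 3, day 4 p2 100 nM replicate 1, day 5 p2 10 nM replicates 1, 2 and 3, day 5 p2 100 nM replicate 2, day 5 pMN 100 nM replicate 2, day 5 pMN 500 nM replicate 2.

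Between p2 and p3 the change was more positive in p2 in 612 elements and more negative in 420. The largest were 3.76 near 1700017G19Rik, 3.15 in Robo1 and 2.99 near Arfgap2, and -3.41 in Oxr1, -3.28 in Fmn2 and -2.92 near 4932441J04Rik. Within 100 nM SAG alone the Oxr1 difference was -3.15 and its call was lost.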

How the results depend on the processing

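Counts of called elements in p2 moved most with the filter on the mean. Over 4-fold, 8355 elements changed with no filter (6386 higher, 1969 lower), 2650 with a mean over 50 (2203 and 447) and 499 with a mean over 200 (459 and 40). Over 2-fold these were 30056 (19464 and 10592), 9839 (7156 and 2683) and 2143 (1756 and 387). The number tested changes with the filter. The correction for GC content and level gave 576 higher and 318 lower over 4-fold, the same numbers with the replicate block, and 2584 and 1825 over 2-fold, with 1826 lower with the block. Of the elements that rose over 2-fold, 65.96% were called with that correction, and of those that fell 97.3%, and 0 were called in the opposite direction under any setting. With the fold on the transformed scale 97 fell over 4-fold. With day 6 in the fit 1757 rose and 88 fell over 4-fold. The causes were not tested. Reads in elements at day 5 minus day 4 were 242912.5 (without day 5 100 nM replicate 1) to 3542856.5 (without day 5 10 nM replicate 2). Leaving out each library gave 1144 to 1618 over 4-fold (981 to 1453 higher, 124 to 211 lower) and 4664 to 5447 over 2-fold (3522 to 4289 higher, 968 to 1291 lower). All other settings gave counts within 1.5 times.

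Differences from p0-1 numbered 470 with no filter, 290 with the block, 99 with the GC correction, 398 with both, 13 by voom, 166 at an adjusted p under 0.05, 0 within 10 nM SAG (limma, 2692 at an unadjusted p under 0.05), and 5 to 155 leaving out each library. Those from pMN numbered 147, 89, 38, 95, 9, 49, 0 within 100 nM (1420 at an unadjusted p under 0.05), and 7 to 26. Those from p3 numbered 5610 with no filter, 1619 with the block, 1739 with the block and GC correction, 571 by voom, 38 within 100 nM, and 679 to 1267. With p2 and p0-1 or p3 together, the lowest correlation of samples with the same number was -0.154 and -0.126 over all SAG concentrations. The best match shared the number in 24 of 24 and 21 of 22 samples. The number of elements whose change was called different between SAG concentrations was 0 under every setting. Of the values for 70 named changes in p2, 1690 kept their status as called or not called, 11 were no longer called (Hes3, Meox1, Foxp2 and Dll4) and 2 became called (Nkx1-2), and no called change reversed. Among these, 29 values at 8 marker elements that were never called had the other sign, the largest of them -0.17. Named differences lost their call in 70 of 189 values against p0-1, 50 of 187 against pMN and 1 of 164 against p3. Over all tested elements, 17 and 16 motifs had a larger share with 150 bases, against 17 and 15.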

Other observations

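The samples hold no measure of transcripts, so accessibility near a gene says nothing here of its level. Elements are assigned to the nearest TSS, which need not be the gene they act on. The balance of higher and lower elements moved with the scaling. Elements averaging under 100 normalized counts were tested only under alternatives. Counts of differences from p0-1 and pMN moved with single libraries.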
